A study of Mus musculus with 6 samples.

Results

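The complement factors and regulators examined here are 36 genes chosen by symbol from the 23282 genes of a count table. They cover the recognition proteins and proteases that start the cascade, the central components C3 and factor B, the terminal components, and the regulators and receptors. The symbols matched 35 rows: C1s matched none, while C1s1, a mouse C1s gene, did. Counts were made from primary hepatocytes of C57BL6/N mouse livers, which were isolated with collagenase, plated for 3 h and given fresh medium. 3′ mRNA sequencing (QuantSeq, which reads the end of each transcript next to its poly(A) tail) then compared 3 control samples left without treatment with 3 samples treated for 24 h with recombinant IL-1β protein. The sample labels do not give the dose of IL-1β. The cells had been filtered and washed, no sort for hepatocytes is described, and a cultured cell lacks the blood and tissue around it, which limits the cultures as a model of the liver. The labels do not say that the replicates came from separate animals or cultures, so the p-values measure only the spread between these samples, which may be technical.

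Complement is a set of plasma proteins, most of them made by hepatocytes, that tag microbes and damaged cells and can open pores in their membranes. The classical pathway begins with the C1 complex and the lectin pathway with sugar-binding lectins and their proteases, and both cut C4 and C2, whereas the alternative pathway runs on C3, factor B, factor D and properdin. All routes cut C3, after which C5 to C9 can assemble into the membrane attack complex, and soluble and membrane-bound regulators restrain each step. Several complement proteins belong to the acute phase response of the liver, which IL-1β and IL-6 are known to induce.

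IL-1β moved complement genes in both directions, with C3 and Cfb among those that rose and C8a, Mbl2, C4bp and Clu among those that fell. Each library held between 9538741 and 11105408 counts, and a count of 3, used here as the detection floor, equalled 0.269 to 0.321 CPM, the unit of counts scaled to a common library size. Intervals and floors of this kind cover counting error only. CPM values here were scaled by TMM, a method that corrects library totals for differences in composition. Of the 35 genes with a row, 30 passed a filter on low counts and were tested among 11657 genes with edgeR's quasi-likelihood test and Benjamini-Hochberg adjustment. At an adjusted p below 0.05, 8 complement genes were higher after IL-1β, where 6.97% of all genes tested were higher, and 9 were lower, where 6.44% of all genes tested were lower. In 18 of the 30 the values of the groups did not overlap, as was the case for 28.2% of all genes tested. The median log2 fold change of the 30 was -0.13, against -0.002 for all genes tested. The 30 genes were also more abundant than most, with a median of 74.5 CPM in the control samples against 22.2 CPM over all genes tested. Scaling by total counts made 39.6% of all calls increases, against 52% with TMM, and left 8 complement genes higher and 11 lower.

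**Figure D1:**
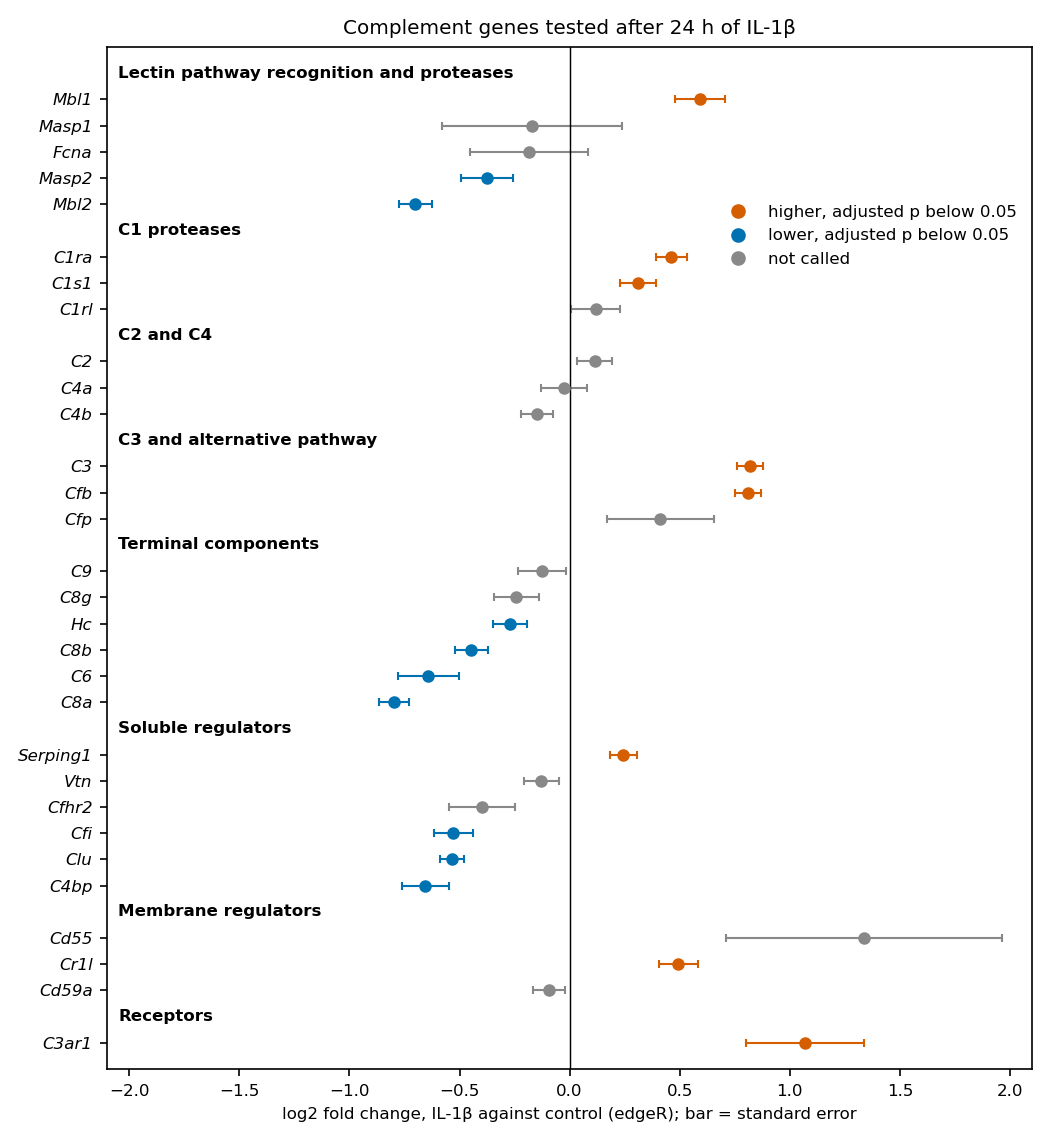
Log2 fold change of each of the 30 tested complement genes (x axis, IL-1β against control, n = 3 per group), grouped by role; bars are standard errors and colours mark the edgeR call at an adjusted p below 0.05. Of the 6 terminal components none was called higher and 4 were called lower, while C3 and Cfb lay near 0.8.

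The cultures carried markers of hepatocytes, at levels that differed widely. The 10 hepatocyte markers summed to 21022, 20825 and 20875 CPM in the control samples and to 17211, 18102 and 17874 CPM after IL-1β. Alb made up most of these sums, with a control mean of 16200 CPM. Cps1, Tat and Hpd were low, with control means of 2.65, 3.22 and 7.64 CPM, and the others had 87.7 to 2265 CPM. All 3 sums after IL-1β lay below the controls, 8 of the 10 markers were lower and 0 higher, and their median log2 fold change was -0.36. A bulk sample cannot tell fewer cells of a type from less RNA per cell. Hepatocyte markers thus moved in the same direction as the complement genes that fell, and their part in those decreases was not tested. Markers of other liver cells were also detected, and each list had lower sums than the hepatocyte list. Single genes overlapped in level, since Cd68 (192 CPM) and Spp1 (189.8 CPM) had control means above that of Cyp2e1 (166 CPM), a hepatocyte marker. The 12 markers of Kupffer cells or macrophages summed to 323, 357 and 360.4 CPM in the control samples and to 402, 395 and 403 CPM after IL-1β. Cd68 was the most abundant of these and none was at 0 in every library, although Timd4 and Clec4f were too low to be tested, and 1 of the 10 tested, Mpeg1, was higher (log2 fold change 0.76, adjusted p = 1.7e-07). The 8 endothelial markers, led by Eng, summed to 80.1, 76.3 and 82.9 CPM and to 77.0, 75.5 and 79.5 CPM. Their median log2 fold change was -0.56, with Clec4g (-2.87, adjusted p = 1.9e-05) and Kdr (-1.49, adjusted p = 0.00511) lower and Lyve1 (0.45, adjusted p = 0.0274) higher, and the more abundant Eng and Lyve1 carried much of the sum. Among 10 stellate cell or fibroblast markers, led by Dcn, 3 were tested and 0 were called, with sums of 24.3, 24.1 and 20.6 CPM in the control samples and 22.6, 26.5 and 28.7 CPM after IL-1β. Of 5 cholangiocyte markers, Krt19, Krt7 and Epcam were at or near 0, with group means of at most 0.345 CPM. The 5 summed to 326, 316 and 329 CPM and then to 236, 239.7 and 236 CPM, with Sox9 the most abundant over all samples. The lower sum came from Spp1, with means of 189.8 and 82.7 CPM (log2 fold change -1.20, adjusted p = 4.4e-12), whereas Sox9 had 134 and 155 CPM (adjusted p = 0.0519). No neutrophil, lymphocyte or mesothelial marker passed the filter, and Elane, Mpo, Retnlg, Cd3e, Cd79a, Ms4a1, Msln, Wt1 and Upk3b were at 0 in every library.

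C3 and factor B, which together form the convertase that amplifies the cascade, rose by similar amounts. C3, the protein on which all pathways meet, had 1664, 1828 and 1848 CPM in the control samples and 3015, 3152 and 3243 CPM after IL-1β. All IL-1β samples lay above all controls, and the means were 1779.9 ± 101 and 3137 ± 115 CPM (SD, n = 3). The increase was 1.76-fold, or 0.82 ± 0.06 on the log2 scale (± standard error of the fit, SE; edgeR adjusted p = 9.8e-11). Cfb, which encodes factor B, the protease subunit of that convertase, had 1375, 1545 and 1539.6 CPM without treatment and 2538, 2627 and 2653 CPM with it. The groups were again apart, and the change was 1.75-fold, or 0.81 ± 0.06 on the log2 scale (SE, adjusted p = 1.4e-10). Cfp encodes properdin, which stabilises the convertase and is made mainly by myeloid cells. It had 10.1, 5.91 and 5.04 CPM in the control samples and 8.34, 8.74 and 10.9 CPM after IL-1β. These groups overlapped, because control 1 was higher than 2 of the IL-1β samples, and the log2 fold change of 0.41 ± 0.24 was not called (adjusted p = 0.334). Without control 1 it was 0.77 and called (adjusted p = 0.0314), and without control 3 it was 0.23 (adjusted p = 0.681). Cfd, the gene of factor D, a product chiefly of fat tissue, had 0 counts in every control and 1, 1 and 0 counts after IL-1β, so it lay under the floor and was not tested.

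Among the classical pathway genes, 2 of the 3 listed C1 protease genes with a row rose, and no change was called for C2 and C4. C1ra, a gene of the C1r protease, had 174, 194 and 198 CPM in the control samples and 252, 272 and 257 CPM after IL-1β. The lowest IL-1β sample was above the highest control, with a log2 fold change of 0.46 ± 0.07 (SE, adjusted p = 2.6e-05). C1s1, which encodes the C1s protease that cuts C4 and C2, had 89.6, 93.7 and 99.2 CPM and then 123, 123 and 105 CPM. Its groups did not overlap either, although IL-1β 3 lay close to the highest control. The log2 fold change of C1s1 was 0.31 ± 0.08 (SE, adjusted p = 0.0105), and the call was lost without IL-1β 1 (0.28, adjusted p = 0.0686) and without IL-1β 2 (0.28, adjusted p = 0.0739). C1rl, a relative of C1r, had means of 37.6 ± 2.66 and 40.7 ± 5.36 CPM (SD, n = 3), which overlapped (adjusted p = 0.594). C4b, the more abundant C4 gene here, had 239.6, 275 and 279.9 CPM in the control samples and 224, 246 and 246 CPM after IL-1β. Control 1 lay among the IL-1β samples, and the log2 fold change of -0.15 was not called (adjusted p = 0.211). C4b was called only without control 1 (-0.22, adjusted p = 0.0274), and without IL-1β 1 its value was -0.10 (adjusted p = 0.573). C4a had means of 38.4 ± 3.18 and 37.7 ± 2.07 CPM, and C2, the protease subunit of the classical convertase, had 106 ± 4.75 and 114 ± 9.02 CPM. Neither was called, with log2 fold changes of -0.03 for C4a (adjusted p = 0.930) and 0.11 for C2 (adjusted p = 0.434).

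The mannose-binding lectin genes changed in opposite directions. Mbl1, which encodes mannose-binding lectin A, had 30.7, 28.0 and 25.3 CPM in the control samples and 46.8, 40.3 and 39.8 CPM after IL-1β. Every IL-1β sample was above every control, a log2 fold change of 0.59 ± 0.11 (SE, adjusted p = 5.5e-04). Mbl2, which encodes mannose-binding lectin C, had 157, 145 and 153 CPM without treatment and 90.2, 94.8 and 95.1 CPM with it. Here every IL-1β sample was below every control, and the log2 fold change was -0.70 ± 0.07 (SE, adjusted p = 9.3e-08). Since 3′ reads are not spread along the transcript, counts were not divided by gene length, and ratios between genes are ratios of reads. For each read of Mbl1 the control samples held 5.12, 5.19 and 6.04 reads of Mbl2, and the IL-1β samples held 1.93, 2.36 and 2.39. Masp2, the protease of the lectin complexes that cuts C4 and C2, had 50.6, 37.2 and 41.4 CPM in the control samples and 35.7, 33.3 and 30.8 CPM after IL-1β. The groups were separate by a narrow margin, with control 1 well above the other controls. Its log2 fold change was -0.37 ± 0.12 (SE, adjusted p = 0.0337), and leaving out control 1 gave -0.24 (adjusted p = 0.207). The call was also lost without IL-1β 1 (-0.42, adjusted p = 0.0558), IL-1β 2 (-0.37, adjusted p = 0.104) or IL-1β 3 (-0.32, adjusted p = 0.178), and with DESeq2 (-0.37, adjusted p = 0.0664). Masp2 overlaps Tardbp on the opposite strand, which had means of 86.8 and 81.8 CPM, and whether the counting used strand is not given in the sources used here. Fcna, the ficolin A gene, and Masp1, another lectin pathway protease gene, had means of 2.68 to 5.63 CPM in either group and were not called (log2 fold changes -0.18 and -0.17). Colec10, the gene of a liver collectin, had 0 counts in the control samples and 3, 3 and 2 counts after IL-1β and was not tested.

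**Figure D2:**
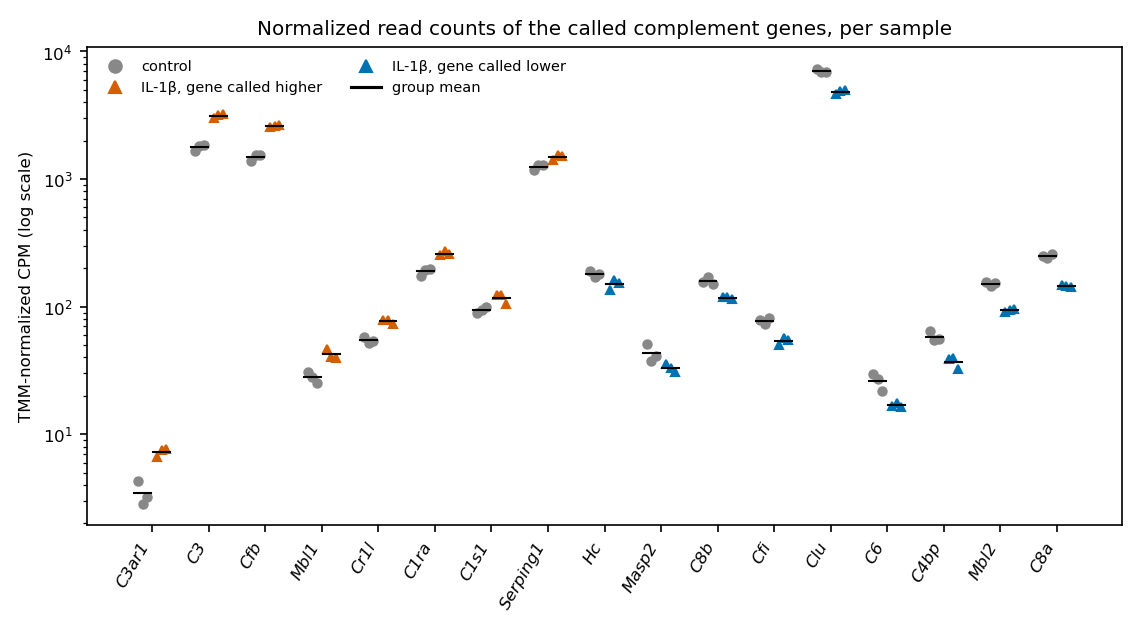
TMM-normalized CPM (y axis, log scale) in each of the 3 control samples (grey circles) and 3 IL-1β samples (triangles) for the 17 complement genes called at an adjusted p below 0.05, ordered by log2 fold change; black lines are group means. The groups of each gene do not overlap, and levels run from 2.86 CPM for C3ar1 to 7322 CPM for Clu.

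Genes of the membrane attack complex were called lower or not at all. Of 7 terminal components, 6 were tested, 4 were lower and 0 higher, with a median log2 fold change of -0.36. C8a, the gene of the C8 alpha chain, which inserts into the target membrane, had 251, 241 and 259 CPM in the control samples and 147, 144 and 141 CPM after IL-1β. The groups lay far apart relative to their spread, and C8a fell by 0.80 ± 0.07 on the log2 scale (SE, adjusted p = 1.9e-09). C8b, the gene of the beta chain, had 157, 171 and 150.2 CPM and then 118, 119 and 115 CPM. All of its IL-1β values were lower, with a log2 fold change of -0.45 ± 0.07 (SE, adjusted p = 8.5e-05). C8g encodes the gamma chain, a lipocalin bound to the alpha chain, and had 83.5, 62.8 and 66.7 CPM in the control samples and 60.2, 56.8 and 63.2 CPM after IL-1β. Its groups overlapped by a small amount, and the log2 fold change of -0.24 was not called (adjusted p = 0.131), but was called with total-count scaling (-0.30, adjusted p = 0.0476). Control 1 was the highest sample, and without it the value was -0.11 (adjusted p = 0.565). Reads of C8a per read of C8g were 3.00, 3.83 and 3.88 in the control samples and 2.44, 2.54 and 2.24 after IL-1β.

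C6, the component that binds C5b at the start of the attack complex, had 29.9, 27.1 and 21.97 CPM in the control samples and 16.7, 17.5 and 16.5 CPM after IL-1β. The controls were the more variable group, yet all lay above the IL-1β samples, and the log2 fold change was -0.64 ± 0.14 (SE, adjusted p = 0.00182). Hc, the mouse gene of C5, had 191, 169.7 and 182 CPM and then 136, 161 and 153 CPM. Its groups were apart, with IL-1β 2 nearest to the controls, and it fell by 0.27 ± 0.08 on the log2 scale (SE, adjusted p = 0.0160). Without IL-1β 1 the value for Hc was -0.20 (adjusted p = 0.162) and without IL-1β 3 it was -0.28 (adjusted p = 0.052), so neither passed. C9, whose protein forms the ring of the pore, had means of 36.8 ± 1.52 and 33.8 ± 2.82 CPM (SD, n = 3), and its groups overlapped (log2 fold change -0.13, adjusted p = 0.555). C7 had 0 counts in every library, which allows up to 0.269 to 0.321 CPM by the floor of 3 counts.

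Among the soluble regulators, 1 rose and 3 of the 6 fell. Clu encodes clusterin, which binds the forming attack complex and keeps it out of membranes, and was the most abundant of the genes listed. It had 7322, 6860.0 and 6892 CPM in the control samples and 4669, 4878 and 5002 CPM after IL-1β. The highest IL-1β value was far below the lowest control, and the log2 fold change was -0.53 ± 0.05 (SE, adjusted p = 6.2e-08). Cfi, the gene of factor I, the protease that cuts C3b and C4b, had 78.8, 73.0 and 81.8 CPM without treatment and 50.0, 56.6 and 55.2 CPM with it. No IL-1β sample reached the controls, and the log2 fold change was -0.53 ± 0.09 (SE, adjusted p = 1.2e-04). C4bp encodes C4b-binding protein, a cofactor of factor I, and had 64.4, 54.5 and 55.9 CPM and then 38.9, 39.9 and 32.4 CPM. It too was lower in every IL-1β sample than in any control, at -0.66 ± 0.11 on the log2 scale (SE, adjusted p = 6.3e-05). Reads of C3 per read of Cfi were 21.1, 25.03 and 22.6 in the control samples and 60.3, 55.7 and 58.7 after IL-1β.

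Serping1, the gene of C1 inhibitor, which blocks the C1 and lectin pathway proteases, moved the other way. It had 1181, 1300.1 and 1281 CPM in the control samples and 1408, 1538 and 1509 CPM after IL-1β. All treated samples were above all controls, but the increase was small, 1.18-fold or 0.24 ± 0.06 on the log2 scale (SE, adjusted p = 0.00632). Cfhr2 had 24.99, 20.4 and 25.1 CPM and then 21.9, 16.6 and 15.1 CPM. Control 2 lay within the IL-1β range, and the log2 fold change of -0.40 was not called (adjusted p = 0.0876). It was called in 2 of 14 settings, with total-count scaling (-0.45, adjusted p = 0.0428) and without IL-1β 1 (-0.56, adjusted p = 0.0272). Without IL-1β 3 the value for Cfhr2 was -0.28 (adjusted p = 0.361). Vtn, the gene of vitronectin, another inhibitor of the attack complex, had means of 281 ± 38.0 and 257 ± 12.7 CPM (SD, n = 3), which overlapped (log2 fold change -0.13, adjusted p = 0.362). Control 1 was the highest sample for Vtn, and without it the log2 fold change was -0.01 (adjusted p = 0.953).

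Of the membrane regulators, Cr1l was called. Cr1l encodes Crry, the rodent regulator that inactivates C3 and C4 fragments on the cell's own surface. It had 58.1, 51.6 and 54.0 CPM in the control samples and 78.7, 78.4 and 73.3 CPM after IL-1β, with no overlap. The log2 fold change was 0.49 ± 0.09 (SE, adjusted p = 2.2e-04). Cd59a, the gene of the surface inhibitor of the attack complex, had 121, 124 and 126 CPM and then 115, 112 and 119 CPM. All IL-1β samples lay below the controls, but the difference was small and not called (log2 fold change -0.09, adjusted p = 0.494). Cd55, the gene of decay-accelerating factor, had 3, 3 and 12 counts in the control samples and 9, 24 and 12 counts after IL-1β. These counts overlapped, and the log2 fold change of 1.34 had an SE of 0.63 (adjusted p = 0.193), so a difference was not shown. Cd46, which in mice is made mainly in the testis, had 2, 6 and 1 counts and then 0, 13 and 1 counts and was not tested.

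The receptor gene C3ar1, whose product binds the C3a fragment and is known from macrophages and other myeloid cells, had 4.32, 2.86 and 3.22 CPM in the control samples and 6.63, 7.49 and 7.72 CPM after IL-1β. All IL-1β samples were above the controls, though at low levels. The increase was 2.1-fold, a log2 fold change of 1.07 ± 0.27 (SE, adjusted p = 0.00731). Macrophage markers are given here for comparison: Mpeg1 rose from 83.1 to 141 CPM, the only call among the 10 tested, whose median log2 fold change was 0.23. Marco (3.99 and 6.33 CPM, adjusted p = 0.141) and Cd74 (7.71 and 11.4 CPM, adjusted p = 0.0658) were higher in every IL-1β sample than in any control without being called. Adgre1 and Csf1r had log2 fold changes of 0.64 and 0.44 with overlapping groups. The others, Cd68, Ctss, Cd5l, Ptprc and Lyz2, had log2 fold changes from -0.21 to 0.02 and were not called, although Cd5l was lower in every IL-1β sample than in any control. The part of these cells in the results for C3ar1 and Cfp was not tested. C5ar1, the receptor gene for C5a, had 0, 0 and 4 counts in the control samples and 4, 0 and 10 counts after IL-1β and was not tested.

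The complement genes together had similar sums of TMM-scaled CPM in both groups, while the makeup of those sums differed. Summed over the 35 genes, the control samples had 13911, 13789.5 and 13886 CPM and the IL-1β samples had 13688, 14317 and 14480.5 CPM. The sums overlapped, since IL-1β 1 was below every control and the other two were above. Clu made up 52.6%, 49.7% and 49.6% of the complement reads in the control samples and 34.1%, 34.1% and 34.5% after IL-1β. C3 and Cfb together made up 21.8%, 24.5% and 24.4% of them in the control samples and 40.6%, 40.4% and 40.7% after IL-1β. Both shares were without overlap between the groups. With Clu left out, the sums were 6588, 6929.5 and 6993 CPM and then 9019.5, 9438 and 9478 CPM, all higher after IL-1β. The terminal components summed to 748, 708 and 718 CPM without treatment and 509.9, 535 and 520.3 CPM with it, below every control.

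**Figure D3:**
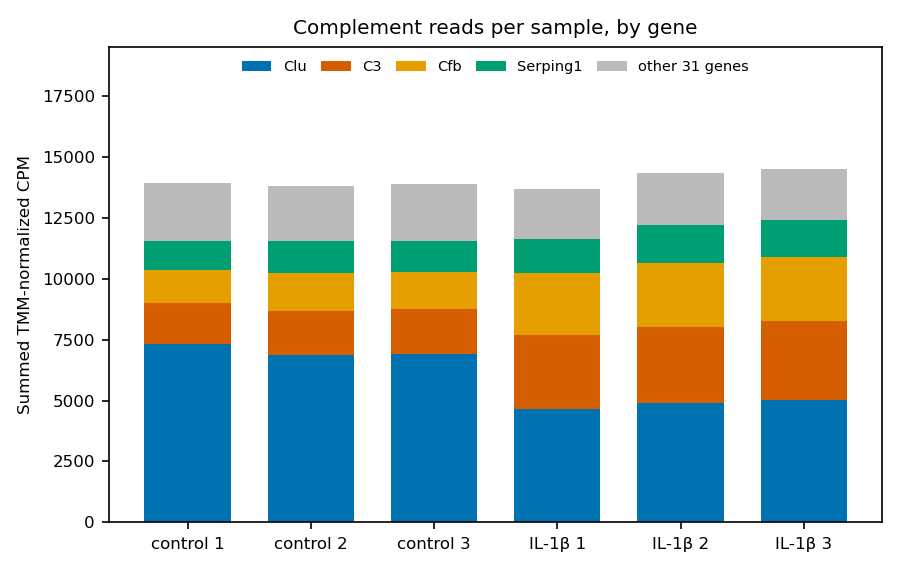
Summed TMM-normalized CPM of the complement genes in each sample (y axis, from 0), with bars divided into Clu, C3, Cfb, Serping1 and the remaining genes; n = 3 samples per group, each drawn as its own bar. The bars are of similar height, the Clu part is smaller in the IL-1β samples (34.1% to 34.5%) than in the controls (49.6% to 52.6%), and the C3 and Cfb parts are larger.

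Genes that lie side by side were not always called alike, and differences in response between neighbours were not tested. On GRCm38, Cfb (chr17:34856374-34862514) and C2 (chr17:34862602-34882100) are both on the minus strand, 87 bases apart. Reads of Cfb per read of C2 were 12.8, 15.4 and 14.1 in the control samples and 22.3, 21.3 and 25.2 after IL-1β, without overlap. C4a and C4b lie on the same chromosome, with C4a 32.9 kb from Cfb, and neither was called. C8b (chr4:104766317-104804548, plus strand) and C8a (chr4:104815680-104876395, minus strand) lie 11.1 kb apart and both fell. C1rl, C1ra and C1s1 follow one another on chromosome 6, with 2.0 kb and 6.9 kb between them, and of these C1ra and C1s1 were called higher.

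Some of these genes share transcript sequence with a relative, so that their counts are uncertain. In the last 500 bases of the GENCODE transcripts, 26.5% of windows of 75 bases, the read length, were identical between C4a and C4b. With the C4a and C4b counts summed, the log2 fold change was -0.13 (adjusted p = 0.263). C1ra shared 14.3% of its windows with C1rb, C1s1 shared 7.28% with C1s2 and Cr1l shared 8.45% with Crry-ps. Cfb shared 93.4% of its windows with the gene model Gm20547, which was not analysed here. The last 500 bases of the other tested genes shared no window with another gene, but 7.04% of the windows of Cd59b were found in transcripts of Cd59a. C8g overlaps Fbxw5 (14.5 and 14.3 CPM in control and IL-1β samples) and Mbl2 overlaps Snora19 (1.15 and 1.36 CPM), each on the opposite strand.

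Promoters were compared because several members moved together. RefSeq promoters on GRCm38.p6, from 250 bases before to 50 bases after the gene start, matched 26 of the 36 genes, among them 6 of those called higher and 7 of those called lower. Both strands were searched for the letters TTGCNNAA (C/EBP), TTCNNNGAA (STAT) and an NF-κB motif. Of 32851 promoters, 10.8% held the C/EBP letters, 8.3% the STAT letters and 8.46% the NF-κB motif. C/EBP letters were found in a promoter of 3 of the 6 genes called higher (C1ra, C1s1 and C3). They were found in 0 of the 7 genes called lower. C1s1 also has a promoter without these letters, and these counts are of genes, whereas the background shares are of promoters. STAT letters were found in 1 of the 6 genes (C1ra) and in 2 of the 7 (C8a and Masp2). The NF-κB motif was found in 0 of either. Another 13 listed genes with a promoter were not called or not tested. Of these, 2 held the C/EBP letters (C1rl and C9) and 3 held the STAT letters (C7, Cfhr2 and Vtn). The NF-κB motif was in 0 of them. A match describes the sequence and does not show that a factor binds there. The called genes with a promoter in the table and the largest changes by size were C3ar1, C3 and C8a, and their 250 bases before the start are given 5′ to 3′ on the minus strand, with the matched letters in capitals. They lie at chr6:122856158-122856407 for C3ar1, chr17:57228137-57228386 for C3 and chr4:104876399-104876648 for C8a. The C/EBP letters of C3 run from -45 to -38 relative to the start, the STAT letters of C8a from -228 to -220, and C3ar1 holds none of the motifs.
C3ar1: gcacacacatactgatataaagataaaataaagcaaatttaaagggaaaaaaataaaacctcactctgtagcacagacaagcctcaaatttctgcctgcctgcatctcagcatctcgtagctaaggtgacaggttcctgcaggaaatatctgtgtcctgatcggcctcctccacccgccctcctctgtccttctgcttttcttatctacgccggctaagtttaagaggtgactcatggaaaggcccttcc
C3: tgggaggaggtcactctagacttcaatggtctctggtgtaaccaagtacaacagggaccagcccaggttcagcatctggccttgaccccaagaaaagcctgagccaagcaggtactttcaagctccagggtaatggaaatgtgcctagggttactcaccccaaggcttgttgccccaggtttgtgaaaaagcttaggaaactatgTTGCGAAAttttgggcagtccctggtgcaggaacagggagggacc
C8a: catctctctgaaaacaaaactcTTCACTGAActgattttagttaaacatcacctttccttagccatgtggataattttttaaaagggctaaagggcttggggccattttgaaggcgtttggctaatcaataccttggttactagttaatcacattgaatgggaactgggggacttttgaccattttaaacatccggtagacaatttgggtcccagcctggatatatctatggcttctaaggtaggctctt

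The wider pathway was described with 26 further complement genes. Of these 25 had a row and 15 were tested, of which 3 were higher and 2 lower, where 6.97% and 6.44% of all genes tested were. Their median log2 fold change was 0.16, and Fcnb was at 0 in every library. The increases were those of Apcs (1.70, adjusted p = 4.2e-15) and Crp (0.88, adjusted p = 5.1e-06), genes of pentraxins, which bind C1q, and of C1rb (0.40, adjusted p = 0.00603), the relative of C1ra. Since 34.0% of the windows of C1rb matched C1ra, its increase and that of C1ra cannot be taken as separate. C1s2, the relative of C1s1, had means of 17.2 and 18.5 CPM and was not called (0.11, adjusted p = 0.785). The decreases were those of Cpn1 (-0.51, adjusted p = 1.8e-04) and Cpn2 (-1.44, adjusted p = 5.9e-04), which encode the subunits of carboxypeptidase N, the plasma enzyme that inactivates C3a and C5a. Apcs had 133, 140.4 and 159 CPM in the control samples and 451, 479 and 476 CPM after IL-1β, with no overlap. The C1q genes, which are expressed mainly by macrophages, were low and not called, with control means of 1.67 to 2.63 CPM and log2 fold changes of 0.75 for C1qa (adjusted p = 0.211), 0.31 for C1qb (0.714) and 0.21 for C1qc (0.861). Itgam, which encodes a subunit of complement receptor 3 on myeloid cells, had 0, 1 and 0 counts in the control samples and 6, 9 and 15 counts after IL-1β, and did not pass the filter.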

How the data were processed

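The authors made gene counts from single-end reads of QuantSeq 3′ libraries, aligned with Bowtie2 to mm10 (GRCm38) per the submitters' processing notes, and the counts were used as deposited. The counting tool and its strand setting are not given in the sources used here. Columns of the authors' own comparisons (fold changes and p-values) and 6 per-sample columns of normalized values were not used. Samples were grouped by the treatment label. Genes were filtered with filterByExpr, scaled by TMM and tested with edgeR 4.0.16 in R 4.3.3 (quasi-likelihood test, group as the only term, Benjamini-Hochberg adjustment over 11657 genes, threshold 0.05), after tests on simulated data. The standard error is the size of the log2 fold change divided by the square root of F. Alternatives used DESeq2 1.42.0, limma 3.58.1 on log2(CPM + 1), other scalings and filters, a replicate block and each sample left out. Values in all samples were given for every listed gene called, and for the most abundant gene of a role group without a call; others shown in all samples were chosen after their values were seen. The complement genes, roles, markers and motifs were chosen with earlier results of these data known. The values of 1 further complement gene are not reported here.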

Additional observations from a re-analysis of the deposited data

How the results depend on the processing

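The 17 complement genes called kept their direction under every alternative run, and 14 of them passed an adjusted p of 0.05 in each of the 14 settings; C1s1, Hc and Masp2 did not. The genes called higher numbered 8 under the 8 alternatives that used all samples and 7 to 9 with each sample left out, and those called lower numbered 8 to 11 and 7 to 9. A replicate block in the model gave 8 higher and 9 lower, the same genes. Over all genes tested, the block gave 859 higher and 812 lower, against 812 and 751 without it. Deviations of samples with the same number correlated at 0.0616, 0.00793 and 0.0038, and those with different numbers at -0.0775 to 0.0755. Whether the numbers pair the samples cannot be told from these values. Only C4a and Masp1, neither of them called, changed direction: with each sample left out C4a ranged from -0.0786 to 0.0368 and Masp1 from -0.54 to 0.13 on the log2 scale, and the cause was not tested. Masp1 had means of about 3 CPM in either group. Cd55 ranged from 0.85 to 2.36 when a sample was left out. Among other genes not called, leaving out a sample gave 0.02 to 0.22 for C1rl, 0.06 to 0.17 for C2, -0.34 to -0.10 for Fcna, -0.19 to -0.08 for C9 and -0.19 to -0.01 for Vtn. Cd46, Cfd, C7, Colec10 and C5ar1 were too low for any statement on a change at this depth.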
